A study of Mus musculus with 9 samples.

Results

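Transcripts of 10 genes of the tumour necrosis factor (TNF) superfamily were followed in mouse embryonic fibroblasts after transfection of a DNA or an RNA mimic of viral nucleic acid. The genes were a list of 5 ligands (Tnf, Tnfsf9, Tnfsf10, Tnfsf15 and Tnfsf18) and 5 receptors (Tnfrsf1a, Tnfrsf1b, Tnfrsf9, Tnfrsf12a and Cd40). The list was chosen with earlier results of these data known. Each symbol matched exactly 1 of the 46603 Ensembl identifiers in the count tables. All cells were BALB/c fibroblasts from embryos of day 10.5, and all carried a knockout of the β-actin gene Actb, so no group held wild-type cells. The mock group received Lipofectamine 2000 alone, the second group 10 µg/ml of the DNA polymer poly(dA:dT), and the third group 10 µg/ml of the RNA polymer poly(I:C), both double-stranded and synthetic. Treatment lasted 6 h in Opti-MEM medium, and each group held 3 libraries, 9 in total. Neither the number of clones or embryos behind the cells nor the origin of the replicates (separate cultures or not) is stated in the sources used here. P-values therefore reflect sample-to-sample spread alone, part or all of which may be technical.

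Ligands of this superfamily are mostly trimeric membrane proteins that can be shed, and their receptors carry cysteine-rich domains outside the cell. Receptors with a death domain, such as TNF receptor 1, mostly recruit the adaptors TRADD or FADD, while many of the others bind TRAF proteins directly. Both routes lead to NF-kB and MAP kinase signalling, and the death domain route can also start apoptosis or necroptosis. Fibroblasts are responders to TNF, whereas many of the other ligands are best known from immune and endothelial cells.

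Assigned reads per library ranged from 16082772 to 29219797. Levels are in CPM, the usual scaling of counts to library size, after correction with the trimmed mean of M-values (TMM) method. A count of 0 allows up to 3 counts, which equalled 0.107 to 0.18 CPM. This limit and the counting intervals given for ratios cover counting error only. Actb itself kept 33.3 ± 1.29 CPM in mock (SD, n = 3), and the sources used here do not say how much of the gene was deleted. Of 10 fibroblast markers 9 reached 1 CPM in mock, with Fap the exception at 2 counts. Ptprc and Tyrobp, which mark leukocytes and myeloid cells, had 0 counts in every group. Of 9 macrophage markers 1 reached 1 CPM in mock and 2 did after poly(I:C), and the summed level was 4.21 to 5.07 CPM in mock, 3.21 to 3.78 with poly(dA:dT) and 5.4 to 7.93 with poly(I:C). Macrophage markers went both ways after poly(I:C). Fcgr1 and Aif1 were called higher (from 0.0729 and 0.0646 to 2.9 and 0.825 CPM). Cd68 and Lyz2 were called lower (from 3.14 and 0.847 to 1.8 and 0.478 CPM). Fcgr1 and Aif1 held 5 and 4 counts in mock and 15 and 7 with poly(dA:dT). Both passed the filter on low counts through the poly(I:C) libraries, in which they were high. The 6 endothelial markers summed to 0.789 to 1.11 CPM in mock, 2.74 to 3.25 with poly(dA:dT) and 4.65 to 4.83 with poly(I:C). Emcn and Tie1 had 0 counts in every group. The 3 that were tested, Pecam1, Kdr and Cdh5, were called higher under both mimics. After poly(I:C) Pecam1 rose 4.77-fold and Kdr 3.27-fold. Cdh5 held 0 counts in mock, 14 with poly(dA:dT) and 61 with poly(I:C), and passed the filter on low counts through the poly(I:C) libraries. The part of these markers in the results on ligands was not tested.

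After poly(I:C), 4 of the 5 ligands (Tnf, Tnfsf10, Tnfsf15 and Tnfsf18) and the receptor Cd40 were higher than in mock, while the ligand Tnfsf9 and the receptors Tnfrsf1a, Tnfrsf1b and Tnfrsf12a were lower by less than 2-fold. In the test across all genes, 9 of the 10 members were called, 5 higher and 4 lower. Among the 14176 genes tested, 76.1% were called, 39.8% as higher and 36.3% as lower. After poly(dA:dT) 5 members were called, 2 higher (Tnf and Tnfsf18) and 3 lower (Tnfsf9, Tnfrsf1a and Tnfrsf1b), against 52.8% of all genes, 26.6% as higher and 26.2% as lower. A call is an adjusted p under 0.05 in edgeR's quasi-likelihood test, with Benjamini-Hochberg adjustment over all genes tested. Values of the groups did not overlap for 9 of the 10 members between poly(I:C) and mock (76.8% of genes tested) and for 5 between poly(dA:dT) and mock (57.3% of genes tested). The members' shares lie close to those over all genes, so the counts are not a result about the family, and the sizes of the single changes carry the description. All 10 members passed the filter on low counts, but Tnfsf10, Tnfsf15 and Tnfsf18 did not pass it in the mock and poly(dA:dT) libraries alone, so their pass rests on the libraries in which they were high. The pass of Tnf likewise rests on the treated libraries, in which it was high, since mock held 0, 0 and 1 counts. In bulk RNA, more cells making a transcript and more RNA per cell cannot be told apart.

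**Figure D1:**
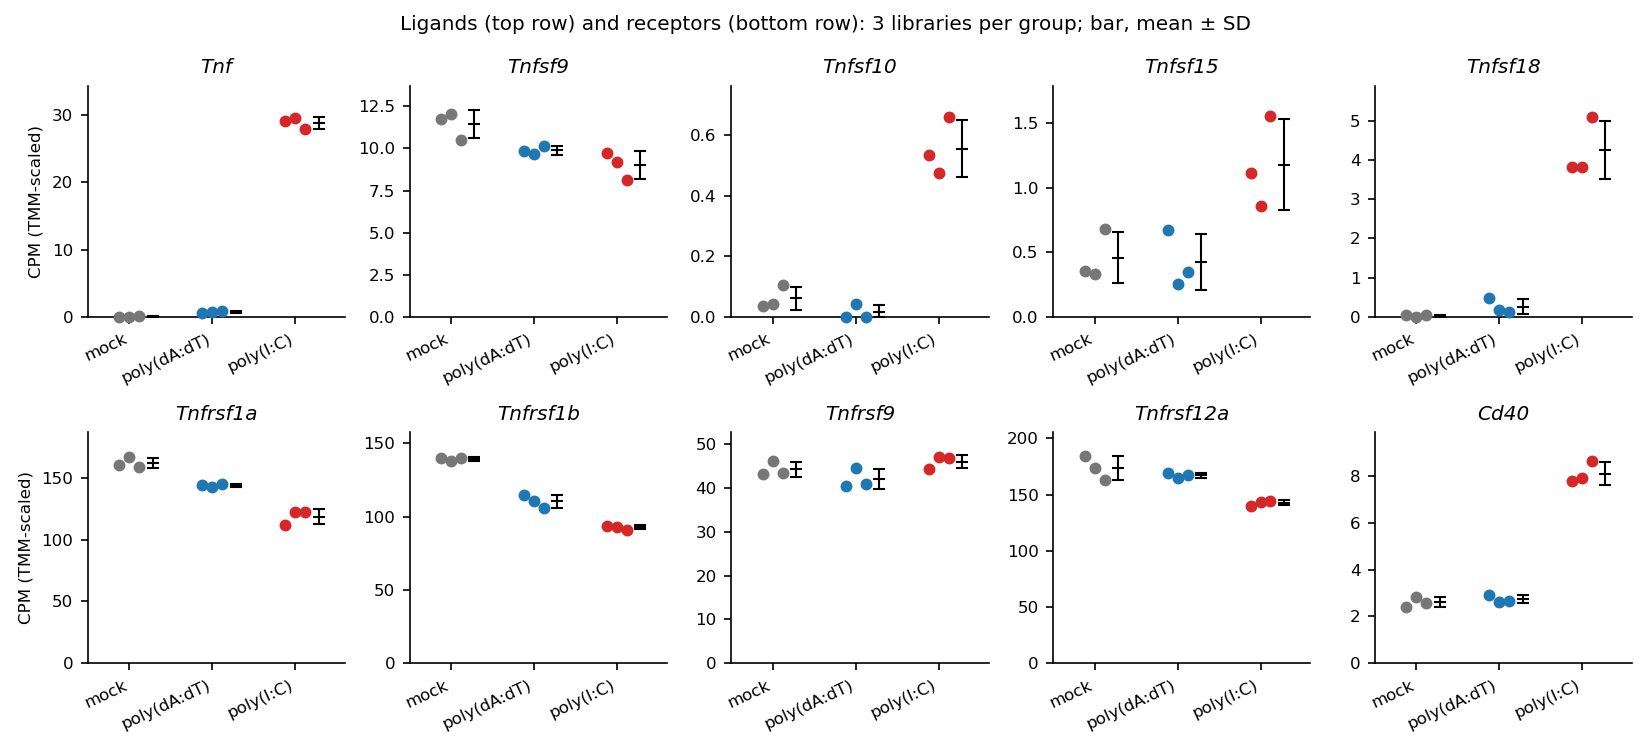
CPM (TMM-scaled, linear axes from 0) of the 5 ligands (top row) and 5 receptors (bottom row) in the 3 libraries of each group (points), with mean ± SD beside them, the lower bar ending at 0 where the SD exceeds the mean. Tnf stood at 27.9 to 29.6 CPM after poly(I:C) against at most 0.0526 CPM in mock, while Tnfrsf1b stood at 91.1 to 93.8 CPM against 138 to 140 CPM.

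Tnf encodes the founding ligand of the family, which binds TNF receptors 1 and 2. The gene (ENSMUSG00000024401) lies on chromosome 17, from 35199381 to 35202007 on the minus strand (GRCm38), with 4 exons and no annotated overlap with another gene. The bases before the RefSeq start of Tnf are shown because Tnf rose more than any other member, beside those of Tnfsf18, the member with the next largest rise, and those of Tnfrsf1b, the member receptor with the largest fall. Coordinates are from the RefSeq table of GRCm38.p6, chr17:35202008-35202257 on the minus strand, chr1:161494407-161494654 on the plus strand and chr4:145246871-145247120 on the minus strand. The Tnfsf18 sequence leaves out the 2 bases nearest the RefSeq start, and positions are counted from that start. Capitals mark matches to the 6 motifs described with them.
Tnf: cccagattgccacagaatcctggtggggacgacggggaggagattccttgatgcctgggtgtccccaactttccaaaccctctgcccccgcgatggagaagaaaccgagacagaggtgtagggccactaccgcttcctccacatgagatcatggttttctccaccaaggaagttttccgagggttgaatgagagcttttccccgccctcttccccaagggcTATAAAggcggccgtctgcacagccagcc
Tnfsf18: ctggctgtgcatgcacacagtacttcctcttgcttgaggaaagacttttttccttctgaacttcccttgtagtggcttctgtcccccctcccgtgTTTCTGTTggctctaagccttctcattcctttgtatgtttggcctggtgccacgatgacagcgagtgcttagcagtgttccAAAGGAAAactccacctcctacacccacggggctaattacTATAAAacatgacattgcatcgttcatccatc
Tnfrsf1b: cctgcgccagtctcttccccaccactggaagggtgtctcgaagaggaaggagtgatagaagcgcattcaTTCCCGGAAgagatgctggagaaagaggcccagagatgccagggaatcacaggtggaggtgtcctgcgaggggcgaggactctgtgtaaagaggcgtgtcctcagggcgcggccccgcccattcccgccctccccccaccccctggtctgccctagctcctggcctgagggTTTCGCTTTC

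The motifs were the NF-kB consensus, the interferon-stimulated response element (ISRE, a pair of GAAA runs with 2 free bases between them), its shorter IRF core (AANNGAAA, which overlaps any ISRE match), AP-1 (TGANTCA), the STAT element GAS (TTCNNNGAA) and the TATA box (TATAAA). Both strands of the 250 bases before each start were searched, and 8 of the 10 members had an entry. Tnf and Tnfsf18 each held a TATA box on the strand of the gene, ending 24 and 29 bases before the start, and none of the other members with an entry held a TATAAA match. A TATAAA match occurred in 12.4% of 32851 windows of the same length, and one on that strand 20 to 40 bases before the start in 1.91% (a window set after the matches were seen). Tnfsf18 and Tnfsf10 each held 2 IRF cores, and Tnfsf15, Tnfrsf1b and Tnfrsf9 (at start 1 of 2) held 1 each. This motif was present in 21.3% of windows. Tnfrsf1b held an ISRE match that ends at the base before the start (2.98% of windows). Tnfrsf1b, Tnfrsf1a and Tnfrsf9 (at start 2 of 2) each held 1 GAS match (7.02% of windows). The Tnf window held no match to the NF-kB consensus (7.25% of windows) or to AP-1 (6.75%), which says only that these letters are not in this window. Among the members with an entry, Tnfrsf9 alone held such matches, at start 2 of 2. These were 2 overlapping matches to the NF-kB consensus and 1 to AP-1.

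Tnf was near the limit of detection without stimulation. The mock libraries held 0, 0 and 1 counts, the poly(dA:dT) libraries 12, 17 and 20, and the poly(I:C) libraries 602, 686 and 465. The 3 groups were thus fully separated, at 0.0175 ± 0.0304, 0.724 ± 0.147 and 28.9 ± 0.873 CPM (SD, n = 3). The ratio to mock was 51.7 after poly(dA:dT) (95% counting interval 8.86 to 2085) and 2058 after poly(I:C) (369 to 81325), with a lone mock count setting the width of both intervals. Both rises were called (adjusted p = 2.54e-11 and 1.76e-85), as was the difference between the mimics, a fold of 39.4 (95% interval 32.6 to 47.7, adjusted p = 1.8e-78). The fitted log2 fold changes against mock, 5.22 ± 0.69 and 10.52 ± 0.25 (SE), depend on that count: without mock replicate 3, which holds it, they became 7.05 and 12.34. The rise after poly(I:C) ranked 3 among the fitted rises of all genes tested. Tnf passed the filter on low counts through the treated libraries only, in which it was high.

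Tnfsf18 encodes the ligand of GITR, a co-stimulatory receptor of T cells. The gene (ENSMUSG00000066755) lies on chromosome 1, from 161494655 to 161505290 on the plus strand. Its counts were 1, 0 and 1 in mock, 10, 4 and 3 with poly(dA:dT) and 79, 89 and 85 with poly(I:C). No library of one group reached into another. The level rose from 0.0295 ± 0.0269 CPM in mock to 0.26 ± 0.191 CPM with poly(dA:dT) and 4.26 ± 0.731 CPM with poly(I:C) (SD, n = 3). The ratio to mock was 8.98 (95% counting interval 2.13 to 80.1, adjusted p = 0.00208) and 148 (40.7 to 1233, adjusted p = 2.54e-32). The call after poly(dA:dT) was lost without poly(dA:dT) replicate 1, the library with 10 counts (log2 fold change 2.21 in place of 2.94, adjusted p = 0.0656). Poly(I:C) exceeded poly(dA:dT) by 16.3-fold (95% interval 10.7 to 24.9, adjusted p = 2.16e-25), or by 4.75 in place of 4.03 on the log2 scale without that library.

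Tnfsf10 encodes TRAIL, a ligand that can trigger apoptosis through death receptors. The gene (ENSMUSG00000039304, chromosome 3, 27317028 to 27342427, plus strand) held 1, 1 and 2 counts in mock, 0, 1 and 0 with poly(dA:dT) and 11, 11 and 11 with poly(I:C). The poly(I:C) libraries lay above all others, and those of mock and poly(dA:dT) overlapped. Poly(I:C) raised it 8.9-fold over mock (95% interval 3.48 to 22.8, adjusted p = 1.64e-05), to 0.556 ± 0.095 CPM (SD, n = 3). The ratio of poly(I:C) to poly(dA:dT) was 36.7 (95% counting interval 6.14 to 1492, adjusted p = 8.41e-07), resting on a single count after poly(dA:dT), and the fitted log2 value went from 4.75 to 6.6 without poly(dA:dT) replicate 2, which holds it. Between poly(dA:dT) and mock no difference was detectable at this depth (ratio 0.264, 95% counting interval 0.00536 to 2.67, adjusted p = 0.352).

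Tnfsf15 encodes TL1A, the ligand of death receptor 3, known from endothelial and myeloid cells. The gene (ENSMUSG00000050395, chromosome 4, 63727084 to 63745113, minus strand) held 10, 8 and 13 counts in mock, 14, 6 and 8 with poly(dA:dT) and 23, 20 and 26 with poly(I:C). Mock and poly(dA:dT) overlapped, and all 3 poly(I:C) libraries were higher, at 1.18 ± 0.353 CPM (SD, n = 3). The rise over mock was 2.6-fold (95% interval 1.57 to 4.3, adjusted p = 0.000433), and that over poly(dA:dT) 2.73-fold (1.63 to 4.57, adjusted p = 0.000396). After poly(dA:dT) the log2 fold change was -0.07 ± 0.45 (SE, adjusted p = 0.911). Its sign turned with total counts, at 0.00137, and without mock replicate 3, poly(dA:dT) replicate 2 or poly(dA:dT) replicate 3, at 0.27, 0.19 and 0.045.

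Tnfsf9, which encodes the ligand of the co-stimulatory receptor 4-1BB, had the highest level in mock of the 5 member ligands. The gene (ENSMUSG00000035678, chromosome 17, 57105325 to 57107757, plus strand) shares 192 exon bases with the antisense transcript Gm11110, and the library kit does not mark strand. Its CPM values were 11.8, 12 and 10.5 in mock, 9.82, 9.67 and 10.2 with poly(dA:dT) and 9.75, 9.22 and 8.1 with poly(I:C). Each treated library lay below all mock libraries, while the treated groups overlapped. The level fell by 21.1% after poly(I:C) (log2 fold change -0.34 ± 0.1 SE, adjusted p = 0.000873), or -0.23 on the log2 scale with total counts (adjusted p = 0.0274). The smaller change after poly(dA:dT), a log2 fold change of -0.22 ± 0.09 (SE, adjusted p = 0.0401), was called in 7 of 17 alternatives (adjusted p = 0.0184 to 0.193). Leaving out mock replicate 1 or 2 or poly(dA:dT) replicate 1, 2 or 3 ended that call, with adjusted p = 0.118, 0.144, 0.0824, 0.107 and 0.0514. Gm11110 stood at 3.74 ± 0.513, 3.54 ± 0.477 and 2.86 ± 0.508 CPM in mock, poly(dA:dT) and poly(I:C) (SD, n = 3), and its part in the Tnfsf9 values was not tested.

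**Figure D2:**
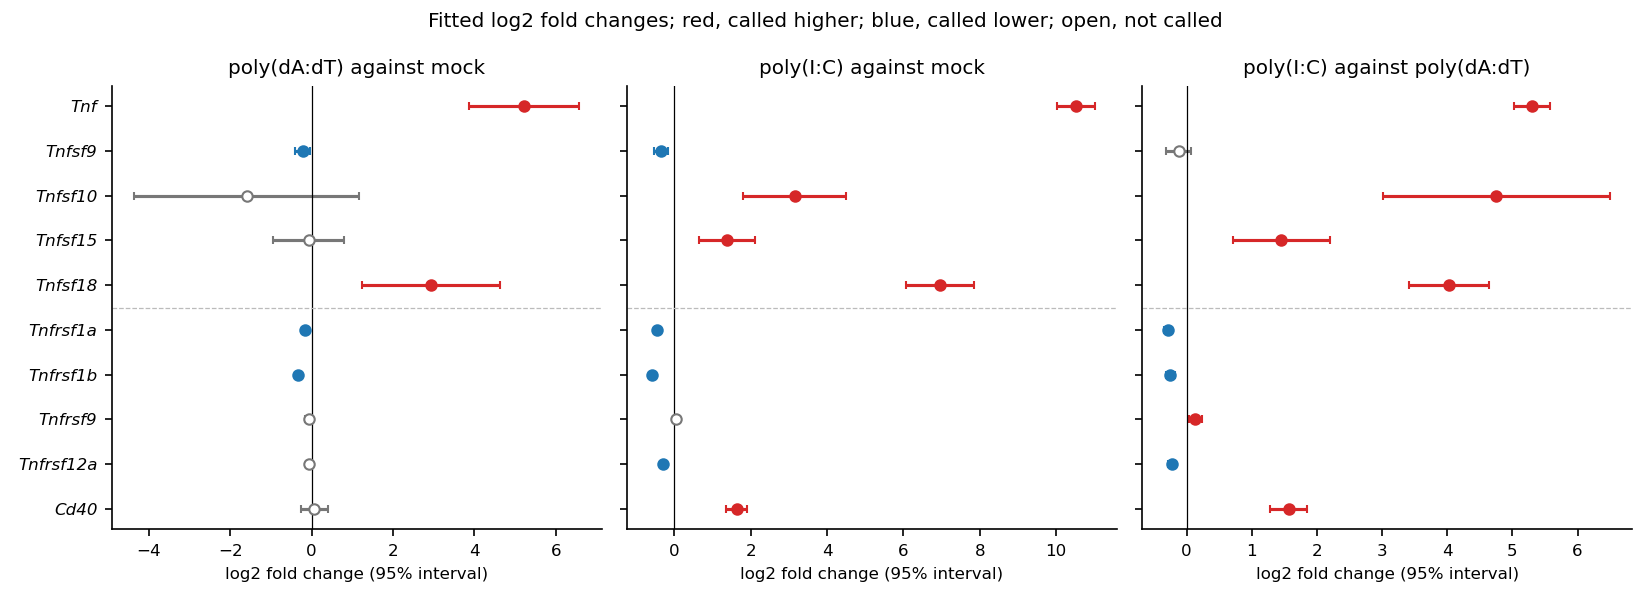
Fitted log2 fold changes of the 10 members (rows) with 95% intervals in the 3 comparisons (panels, each with its own axis), red for called higher, blue for called lower and open for not called. Ligand changes after poly(I:C) reach 10.52 for Tnf, while the called receptor falls lie between -0.59 and -0.17 in the comparisons with mock.

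Tnfrsf1a encodes TNF receptor 1, the death domain receptor that is the main route of soluble TNF. The gene (ENSMUSG00000030341, chromosome 6, 125349362 to 125362484, plus strand) stood at 160, 167 and 159 CPM in the mock libraries, 144, 143 and 145 with poly(dA:dT) and 112, 122 and 122 with poly(I:C). The groups formed 3 separate steps. Relative to mock the level fell by 11.2% after poly(dA:dT) (log2 fold change -0.17 ± 0.03 SE, adjusted p = 1.28e-07) and fell by 26.9% after poly(I:C) (-0.45 ± 0.03 SE, adjusted p = 8.43e-31).

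Tnfrsf1b encodes TNF receptor 2, which lacks a death domain and binds TRAF2. The gene (ENSMUSG00000028599, chromosome 4, 145213463 to 145246870, minus strand) stood at 140, 138 and 140 CPM in mock, 115, 110 and 106 with poly(dA:dT) and 93.8, 93 and 91.1 with poly(I:C). The groups again did not overlap. It showed the largest receptor falls among the members. It fell by 20.8% after poly(dA:dT) (log2 fold change -0.34 ± 0.03 SE, adjusted p = 1.99e-19) and fell by 33.4% after poly(I:C) (-0.59 ± 0.03 SE, adjusted p = 3.1e-39). Both TNF receptors were also lower after poly(I:C) than after poly(dA:dT), with log2 fold changes of -0.28 ± 0.03 for Tnfrsf1a and -0.25 ± 0.03 for Tnfrsf1b (SE, adjusted p = 3.5e-15 and 2.18e-11). These falls of both receptors were called under each of the 17 alternatives. With total counts as the scaling, which moves the median log2 fold change of all genes by 0.11 in the poly(I:C) comparison, the log2 fold changes of Tnfrsf1a and Tnfrsf1b after poly(I:C) were -0.34 and -0.47. After poly(dA:dT) they were -0.097 and -0.26 under that scaling (adjusted p = 0.00289 and 2.23e-13). The summed level of the 10 fibroblast markers was 7531 to 7695 CPM in mock, 7265 to 7387 CPM in the DNA-treated and 6467 to 6768 CPM in the RNA-treated libraries. Of the 9 markers tested, 7 were called lower under each mimic, while Fn1 was called higher under both (1.25-fold and 1.32-fold), and Thy1 under the DNA mimic and Dcn under the RNA mimic were not called. The part of these shifts in the receptor values was not tested.

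Tnfrsf12a encodes Fn14, the small receptor of the ligand TWEAK. The gene (ENSMUSG00000023905, chromosome 17, 23675445 to 23677468, minus strand) stood at 184, 174 and 163 CPM in mock, 169, 165 and 167 with poly(dA:dT) and 140, 144 and 144 with poly(I:C). The mock and poly(dA:dT) values overlapped, and the poly(I:C) libraries lay below both. It fell by 18.1% after poly(I:C) (log2 fold change -0.29 ± 0.03 SE, adjusted p = 1.53e-16, or -0.17 with total counts) and was also lower than after poly(dA:dT) (log2 fold change -0.23 ± 0.03 SE, adjusted p = 2.18e-11). After poly(dA:dT) it was not called (-0.06 ± 0.03 SE, adjusted p = 0.0717). It was called lower there without mock replicate 3 (-0.1, adjusted p = 0.00145) and with DESeq2 size factors (-0.08, adjusted p = 0.0163), and its sign turned with total counts (0.0145, adjusted p = 0.698).

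Cd40 encodes the receptor through which helper T cells activate antigen-presenting cells, and was the member receptor called higher than in mock (Tnfrsf9 was called higher in 2 alternatives, given with it). The gene (ENSMUSG00000017652, chromosome 2, 165055627 to 165072948, plus strand) held 67, 68 and 49 counts in mock, 61, 61 and 61 with poly(dA:dT) and 160, 183 and 144 with poly(I:C). Mock and poly(dA:dT) overlapped at 2.6 ± 0.214 and 2.73 ± 0.17 CPM, and all poly(I:C) libraries were higher, at 8.09 ± 0.476 CPM (SD, n = 3). The rise was 3.11-fold over mock (95% interval 2.56 to 3.77, adjusted p = 6.84e-22) and 2.96-fold over poly(dA:dT) (2.43 to 3.59, adjusted p = 3.52e-20). Poly(dA:dT) against mock gave a fold of 1.05 (95% interval 0.831 to 1.33, adjusted p = 0.761), so that a rise as large as that after poly(I:C) lies outside the interval. The 4 dendritic cell markers summed to 5.11 to 5.94 CPM in mock, 8.83 to 9.63 CPM in the DNA-treated and 12.2 to 14 CPM in the RNA-treated libraries. Nearly all of this sum was Zbtb46 (5.46, 9.2 and 12.8 CPM), while Cd209a had 0 counts throughout, Itgax had 2, 1 and 0 counts and Flt3 6, 0 and 4 in the same order of groups. The part of these markers in the Cd40 values was not tested.

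Tnfrsf9 encodes 4-1BB, the receptor of the Tnfsf9 product. The gene (ENSMUSG00000028965, chromosome 4, 150914562 to 150946102, plus strand) overlaps the bounds of Camta1 on the other strand, with 0 shared exon bases. Its CPM values were 43.3, 46.1 and 43.4 in mock, 40.5, 44.7 and 40.8 with poly(dA:dT) and 44.4, 47 and 46.8 with poly(I:C), and all 3 groups overlapped. Against mock it was not called after poly(dA:dT) (fold 0.95, 95% interval 0.889 to 1.01, adjusted p = 0.194) or poly(I:C) (fold 1.04, 0.974 to 1.11, adjusted p = 0.276). With total counts, or a filter of 50 counts in 3 libraries, it was called higher after poly(I:C), with log2 fold changes of 0.17 and 0.1 (adjusted p = 0.000827 and 0.047). The difference between the mimics was 0.13 ± 0.05 on the log2 scale (SE, adjusted p = 0.0143), and that call ended without poly(dA:dT) replicate 1 or 3, without poly(I:C) replicate 2 and without a filter (adjusted p = 0.0942, 0.0842, 0.0729 and 0.0849).

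Between the mimics themselves, 6 members were called higher after poly(I:C) than after poly(dA:dT) and 3 lower, so that 9 of 10 were called. Over all genes the share called was 63.4%, with 31.3% higher and 32.1% lower. The groups did not overlap for 8 of the 10 members, against 66.1% of genes. Higher were Tnf, Tnfsf10, Tnfsf15, Tnfsf18, Cd40 and, with the reservations above, Tnfrsf9. Lower were Tnfrsf1a, Tnfrsf1b and Tnfrsf12a. Tnfsf9 was not called (log2 fold change -0.12 ± 0.1 SE, adjusted p = 0.281). The comparisons with mock share the mock libraries, so the values after both mimics are given side by side for each member and their likeness is not tested.

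To set the members against each other, levels were expressed per length, as CPM per kilobase of annotated exon. In mock the receptors led, with Tnfrsf12a at 89.8 ± 5.58, Tnfrsf1a at 62.6 ± 1.66, Tnfrsf1b at 36.5 ± 0.33 and Tnfrsf9 at 16.3 ± 0.597 CPM per kb (SD, n = 3). Tnfsf9 followed at 8.88 ± 0.628, Cd40 at 0.764 ± 0.0627 and Tnfsf15 at 0.137 ± 0.0586 CPM per kb, each separated from its neighbours. Tnfsf18, Tnfsf10 and Tnf closed the order at 0.0143 ± 0.013, 0.0116 ± 0.0073 and 0.0107 ± 0.0185 CPM per kb and were not separated from each other. The 4 abundant receptors kept their ranks after poly(dA:dT), where Tnf moved up to the place behind Cd40, at 0.442 ± 0.0899 CPM per kb, and Tnfsf15 and Tnfsf18 overlapped.

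After poly(I:C) Tnf reached the fourth place, at 17.6 ± 0.533 CPM per kb, and overlapped with Tnfrsf9 at 16.9 ± 0.53. The level of Tnfrsf1a per kb was 126 times that of Tnf with poly(dA:dT) and 2.6 times with poly(I:C). Tnf per kb, at 2.52 times Tnfsf9, was then the leading ligand of the list, where it had been at the bottom of the order in mock. Cd40 and Tnfsf18 overlapped at 2.38 ± 0.14 and 2.06 ± 0.354 CPM per kb, and Tnfsf10 was last at 0.106 ± 0.018. With the longest transcript as the length, Tnfrsf12a rose to 176 CPM per kb in mock and Tnfrsf9 to 21.8 after poly(I:C), which puts Tnfrsf9 ahead of Tnf.

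**Figure D3:**
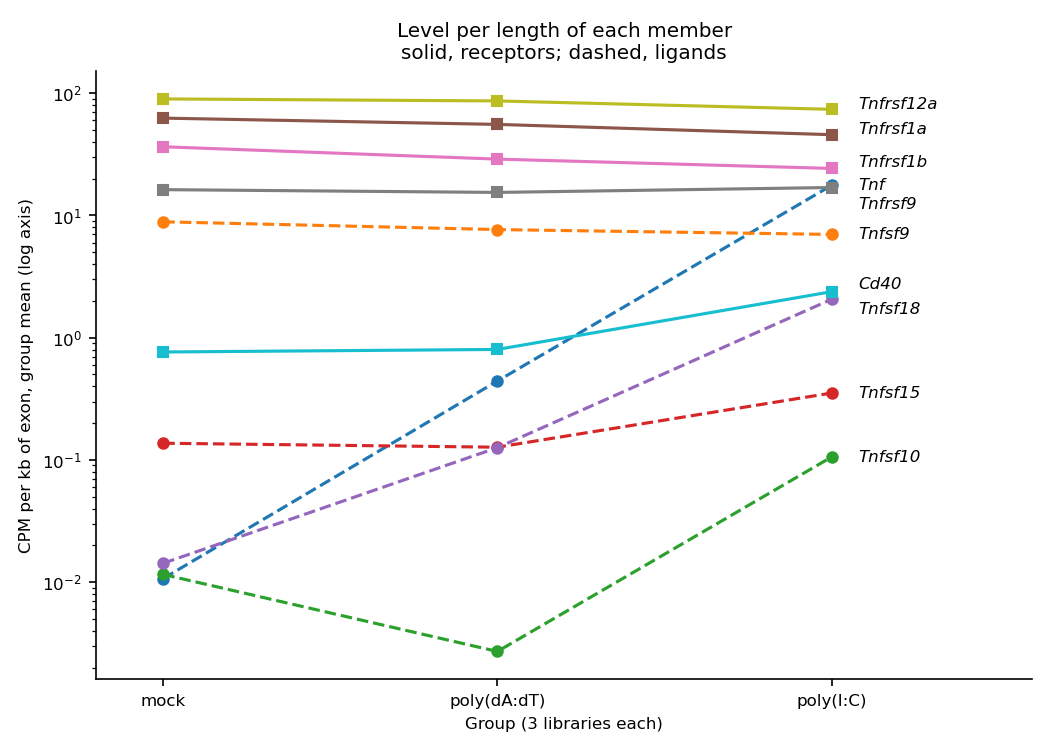
Mean level per length (CPM per kb of exon, log axis) of each member in the 3 groups, with lines joining the values of a gene (solid for receptors, dashed for ligands) and no order implied between treatments. Tnf climbs from 0.0107 in mock to 17.6 CPM per kb after poly(I:C), next to Tnfrsf9 at 16.9.

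By distance over both log2 fold changes against mock, among 11760 protein-coding genes of at least 1 CPM in some group, Tnf lay nearest to Gpr119, Ccl20 and Gbp5, at 1, 1.07 and 1.13 log2 units. Gpr119 and Ccl20 had 0 CPM in mock, as Tnf nearly did, so these fitted values and the distances depend on the prior count. Cd40, the member receptor with the largest rise, lay nearest to Parp12, Apol6 and H2-T22, at 0.012, 0.027 and 0.034 log2 units. The SE of the Cd40 log2 fold change was 0.17 under the DNA mimic and 0.14 under the RNA mimic. Both exceed these distances, so which genes lie nearest to Cd40 is not resolved. The smallest of so many distances are also small by selection, and both fold changes share the mock libraries. Parp12 went from 58.6 CPM in mock to 61.8 with poly(dA:dT) and 182 with poly(I:C).

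The other ligands of the superfamily were mostly too low to test: 5 of 13 passed the filter. Of these, 1 was called higher and 0 lower with poly(dA:dT), beside 26.6% and 26.2% of all genes tested. With poly(I:C) 2 were called higher and 2 lower, beside 39.8% and 36.3%. The median log2 fold changes were -0.06 and 0.4, beside 0.01 and 0.04 over all genes tested. The 0.4 is the value of 1 gene that was not called, Tnfsf13 (26 counts against 23 in mock, adjusted p = 0.474, named for this reason). The genes that rose were the lymphotoxins, whose products signal through TNF receptors and the lymphotoxin β receptor and which flank Tnf on chromosome 17. Ltb (35194439 to 35196320, plus strand) lies 3060 bases from the 3′ end of Tnf, and Lta (35203165 to 35205351, minus strand) lies 1157 bases before its start. Like 3 of the members, Ltb and Lta did not pass the filter in the mock and poly(dA:dT) libraries alone. Both entered the tests through the poly(I:C) libraries, in which they were high. Ltb held 2, 2 and 1 counts in mock, 7, 13 and 12 with poly(dA:dT) and 101, 100 and 81 with poly(I:C), so that its groups, like those of Tnf, did not overlap. With that limit, it rose 6.33-fold with poly(dA:dT) and 61.5-fold with poly(I:C) (adjusted p = 5.95e-05 and 4.45e-34). Lta held 7, 3 and 8 counts in mock, 12, 2 and 13 with poly(dA:dT) and 24, 44 and 39 with poly(I:C). Only its poly(I:C) libraries stood apart (6.86-fold over mock, adjusted p = 1.28e-10, under the same limit). The ligands that fell after poly(I:C) were Tnfsf12, which encodes the Fn14 ligand TWEAK, from 12.1 ± 0.5 to 8.28 ± 0.623 CPM, and Eda, which encodes ectodysplasin, from 15.3 ± 1.09 to 10.3 ± 0.364 CPM (SD, n = 3, adjusted p = 1.84e-07 and 1.75e-09).

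Of 23 other receptors 17 were tested. After poly(dA:dT) 5 were called higher and 2 lower, and after poly(I:C) 8 higher and 3 lower, with median log2 fold changes of 0.12 and 0.31. These counts, too, stand beside 26.6% higher and 26.2% lower over all genes for the first comparison, and 39.8% and 36.3% for the second. Eda2r, which encodes the ectodysplasin A2 receptor and is known as a p53 target, was higher after poly(dA:dT) than after poly(I:C) and stood at 14.3 ± 0.427 CPM in mock, 36.1 ± 0.798 with poly(dA:dT) and 19.8 ± 1.28 with poly(I:C) (SD, n = 3). The difference between the mimics was called, with a log2 fold change of -0.86 ± 0.06 (SE, adjusted p = 1.2e-26). Relt, an orphan-type receptor of lymphoid tissue, and Tnfrsf19, a receptor of developing tissues, rose after both mimics, 1.42-fold and 1.48-fold with poly(dA:dT) and 3.33-fold and 3.2-fold with poly(I:C). Tnfrsf23, a decoy receptor, fell after poly(dA:dT) from 30.4 ± 0.727 to 24.5 ± 1.4 CPM (SD, n = 3, adjusted p = 6.11e-06), and after poly(I:C) to 19.1 CPM (log2 fold change -0.66 ± 0.065 SE, adjusted p = 3.68e-18; this second value lies outside the naming rule). Among receptors of low level called higher after poly(I:C), the decoy receptor gene Tnfrsf22 reached 1.7 ± 0.164 CPM, and Tnfrsf11b, which encodes osteoprotegerin, 1.08 ± 0.209 CPM. The Tnfrsf11b call against mock ended without mock replicate 2 (adjusted p = 0.103). Tnfrsf13c, which encodes the BAFF receptor, was 2.11-fold higher after poly(I:C) than after poly(dA:dT) (adjusted p = 0.00232).

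The partners of the member ligands are named here for that pairing, outside the rule. The GITR gene Tnfrsf18 stood at 0.411 ± 0.145 CPM in mock and 0.382 ± 0.0936 after poly(I:C) (SD, n = 3, adjusted p = 0.918), and the death receptor 3 gene Tnfrsf25 at 1.73 ± 0.248 and 2.15 ± 0.536 (adjusted p = 0.205), so neither was called. The TRAIL receptor gene Tnfrsf10b stood at 54.4 ± 0.0991 CPM in mock, 59.8 ± 0.687 with poly(dA:dT) (adjusted p = 0.00336) and 56.3 ± 1.37 with poly(I:C) (adjusted p = 0.292). The difference between the mimics in Tnfrsf10b missed the threshold (adjusted p = 0.0647). The ligand of Cd40, Cd40lg, had 0 counts in all 9 libraries.

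**Figure D4:**
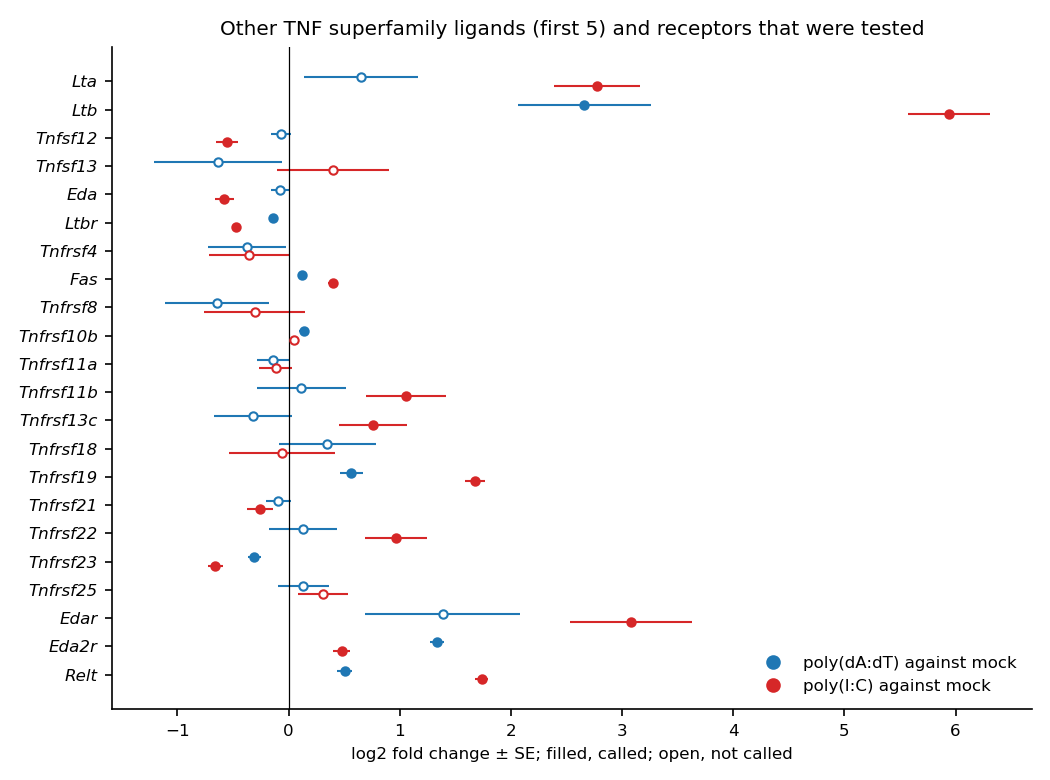
Log2 fold changes against mock (± SE) of the 5 other ligands and 17 other receptors tested, blue for poly(dA:dT) and red for poly(I:C), filled where called. Ltb shows the largest value, 5.94 after poly(I:C), and Eda2r lies further right after poly(dA:dT) (1.34) than after poly(I:C) (0.48).

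The genes that carry the signal below these receptors were all abundant enough to test. Of 29, 16 were called higher and 5 lower with poly(dA:dT) and 23 higher and 4 lower with poly(I:C), with median log2 fold changes of 0.15 and 0.34. Over all genes tested, 26.6% were called higher and 26.2% lower under the DNA mimic, and 39.8% and 36.3% under the RNA mimic. Tnfaip3, which encodes the ubiquitin-editing inhibitor A20, showed the largest rise, from 30.5 ± 3.06 CPM in mock to 90.5 ± 0.599 with poly(dA:dT) and 443 ± 2.78 with poly(I:C) (SD, n = 3). Birc3, an inhibitor of apoptosis that ubiquitinates RIPK1, rose 1.69-fold and 4.72-fold, and Rnf31, the catalytic subunit of the linear ubiquitin ligase, 1.58-fold and 3.08-fold. Traf1, an adaptor that binds TNF receptor 2 complexes, rose 1.44-fold after poly(dA:dT) and 4.27-fold after poly(I:C). Map3k14, the kinase of the alternative NF-kB route, rose 1.59-fold and 2.24-fold in the same order. The Traf1 value for poly(dA:dT) and the Map3k14 value for poly(I:C) lie outside the naming rule. Birc2, which encodes another inhibitor of apoptosis, was 2.28-fold higher after poly(I:C) than after poly(dA:dT). The adjusted p-values of these changes lay between 1.58e-137 and 1.13e-13. The genes called lower were Tradd, Cflar, Cyld, Map3k7 and Adam17 after poly(dA:dT) and Tradd, Cyld, Map3k7 and Ikbkg under the RNA mimic, with the largest fall at -0.42 on the log2 scale for Tradd, the adaptor of TNF receptor 1 (named after their values were seen). Their number went to 3 for the DNA mimic under 2 other scalings (upper quartile, total counts) and when mock replicate 2 or replicate 3 of poly(dA:dT) was left out, and to 2 for the RNA mimic with total counts.

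**Figure D5:**
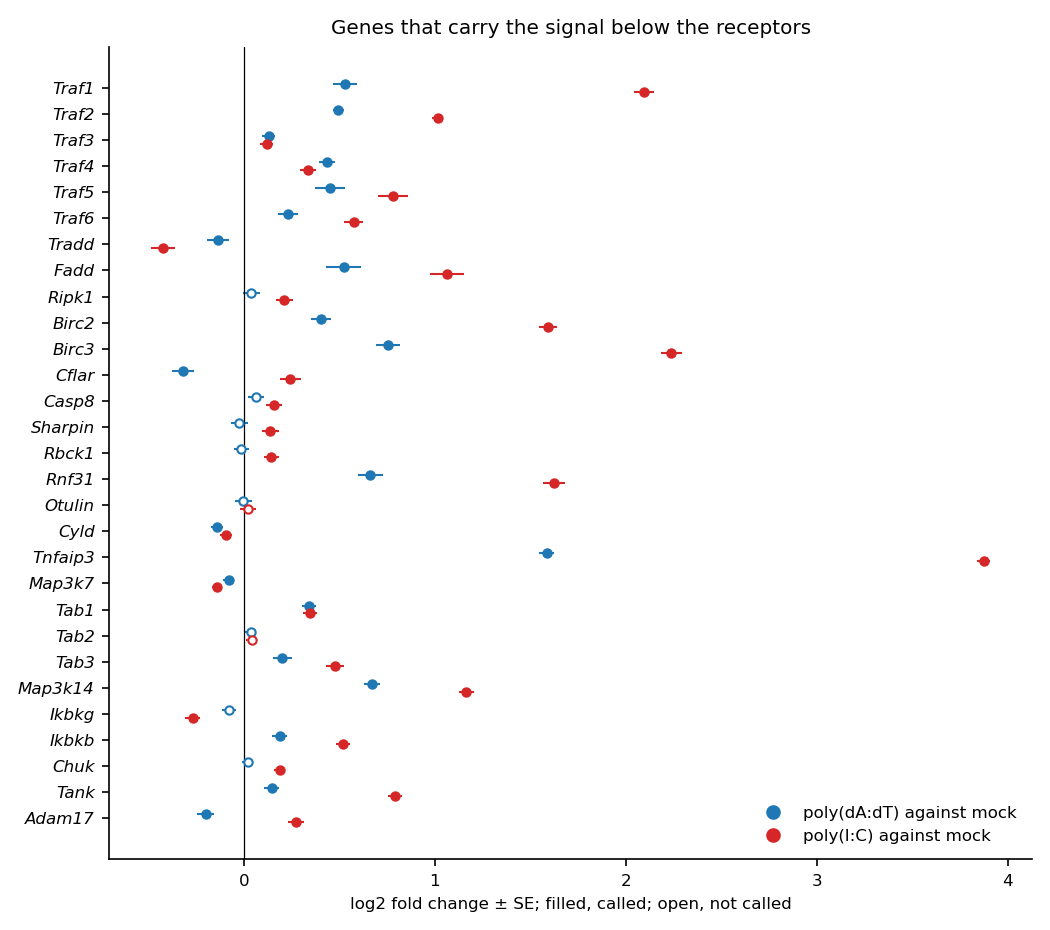
Log2 fold changes against mock (± SE) of the 29 genes of TNF receptor signalling, blue for poly(dA:dT) and red for poly(I:C), filled where called. Tnfaip3 stands apart at 1.58 and 3.87, and the called genes left of 0 stay above -0.5.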

How the data were processed

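Per the labels' protocols, the 9 libraries (3 per group) came from a TruSeq RNA kit, which keeps no strand information. Values are raw read counts per Ensembl gene, deposited by the authors as 1 table per library. The submitters' processing notes name the GRCm38.p4 build and the tools DESeq2, HTSeq and TopHat2 2.1.0. Annotation release, strand setting and the handling of multiply mapped reads: not given in the sources used here. GENCODE M21 (GRCm38) gave symbols, positions and exon lengths. The members and lists were chosen with earlier results of these data known.

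The test was that of edgeR 4.0.16 under R 4.3.3 (quasi-likelihood test, robust, two-sided, TMM scaling, filterByExpr, 14176 genes, all 9 libraries in 1 fit, 6 residual degrees of freedom, prior count 0.125). P-values were adjusted by Benjamini-Hochberg, with a threshold of 0.05. SE is the absolute log2 fold change over the square root of F. Where the lower group held 1 to 3 counts, a ratio of summed counts with an exact 95% binomial interval is given. Replicates differed beyond sampling noise (chi-square per degree of freedom 1.64 to 2.1 over 9 pairs). On simulated counts of 13506 genes for poly(I:C) against mock, 81.25% of 1.5-fold, 83.7% of 2-fold and 100% of 4-fold changes were recovered. Few genes were changed there (48 of them 1.5-fold), unlike in the data. The simulation therefore checks neither the scaling nor changes under 1.5-fold. Named genes are all members, Actb, in each comparison the 4 called genes of each list with the largest change among those of at least 1 CPM, and the 3 genes nearest to the member ligand and receptor with the largest rise. Genes named for another reason are marked. Alternatives were DESeq2 1.42.0, 3 other scalings, 2 other filters, fits of the compared groups only, a replicate block, another gene length and leaving out each library.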

Additional observations from a re-analysis of the deposited data

How the results depend on the processing

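Of 501 values of the members' log2 fold changes under alternative settings, 477 kept their direction and their side of the threshold, 15 lost and 4 gained a call, and 5 changed sign. The sign changes were all in poly(dA:dT) against mock, in Tnfsf15 with total counts (0.00137) and when mock replicate 3 (0.27) or replicate 2 (0.19) or 3 (0.045) of poly(dA:dT) was left out (range over single libraries left out -0.53 to 0.27), and in Tnfrsf12a with total counts (0.0145). The number of members called in that comparison, 5, ranged from 3 to 6 as single libraries were left out, the number higher from 1 to 2 and the number lower from 2 to 4. It was 3, with 1 higher, without poly(dA:dT) replicate 1. In a fit of only those groups 1 member was higher, since Tnfsf18 was not among the genes tested. After poly(I:C) 9 were called without any single library.

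The other ligands called higher after poly(dA:dT) numbered 3 without a filter and 0 in a fit of only the compared groups, and 1 receptor was lower with total counts. Signalling genes lower after poly(dA:dT) numbered 3 with upper-quartile factors and with total counts, and 3 to 5 without single libraries. After poly(I:C), 5 other ligands were higher without a filter, 1 ligand and 5 receptors were higher under the filter of 50 counts, and 2 signalling genes were lower with total counts. Against poly(dA:dT), that filter left 1 ligand and 3 receptors higher. It tests fewer genes. These alternatives for the lists were chosen after seeing the data. The balance of calls over all genes moved with the scaling: with total counts 5004 genes were higher and 2389 lower after poly(dA:dT) against 3769 and 3721, and 6693 and 4072 after poly(I:C) against 5647 and 5140.

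Sample numbers are shared between groups by title only, and same-numbered samples did not deviate together (correlations -0.033 to 0.032 over 9 pairs). With the number as a replicate block, 4 members were called after poly(dA:dT), 2 higher and 2 lower, since Tnfsf9 missed the threshold (adjusted p = 0.0508). The block gave 9 called members in each of the other comparisons. Of 30 levels per length, 12 moved by more than their SD with the longest transcript as the length. Depth limits Tnf and Tnfsf18 in mock and Tnfsf10 in mock and after poly(dA:dT), each at 4 or fewer counts per group.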

Other observations

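Some co-stimulatory ligands of the family lay below the filter on low counts and were looked at after their values were seen. Tnfsf4, which encodes the OX40 ligand, had 0 counts in all mock libraries, 1, 4 and 2 with poly(dA:dT) and 11, 9 and 7 with poly(I:C). Against 3 counts over the mock group the OX40 ligand transcript was at least 2.46-fold higher with poly(dA:dT) and at least 10.6-fold higher with poly(I:C) (adjusted p = 0.0251 and 1.53e-06 in the edgeR fit without a filter). These bounds leave out the counting error of the treated libraries: the exact 95% lower limits of the ratios were 1.52 and 8.02. Cd70, whose product binds CD27, also had 0 counts in mock, with 6, 2 and 2 with poly(dA:dT) and 12, 4 and 6 with poly(I:C). By the same bound it was at least 3.52-fold and at least 8.61-fold higher, with exact 95% lower limits of 2.37 and 6.43 (adjusted p = 0.00614 and 1.25e-05). Poly(I:C) exceeded poly(dA:dT) for Tnfsf4 by a ratio of 4.29 (95% counting interval 1.82 to 11.7, adjusted p = 0.0165), while for Cd70 the ratio of 2.45 (1.11 to 5.78) had an adjusted p of 0.185. The receptors of these ligands are Tnfrsf4, at 0.864 CPM in mock and 0.693 after poly(I:C), and Cd27, with 9 and 10 counts over the groups. Of the other ligands below the filter, Tnfsf8 went from 1 count in mock to 14 with poly(I:C) (adjusted p = 0.00959, edgeR without a filter). Tnfsf11, Tnfsf13b, Tnfsf14 and Fasl were not called against mock in that fit, and Cd40lg had 0 counts.

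Adam17, the sheddase that releases membrane TNF, moved in opposite directions after the mimics, and is named after its values were seen. It stood at 53.8 ± 1.07 CPM in mock, 46.7 ± 0.449 with poly(dA:dT) and 65 ± 2.09 with poly(I:C) (SD, n = 3, adjusted p = 3.56e-05 and 3.7e-09 against mock). Cflar moved the same way, at 33 ± 0.999 CPM in mock, 26.5 ± 0.291 with poly(dA:dT) and 39.2 ± 1.65 with poly(I:C) (SD, n = 3, adjusted p = 3.75e-07 and 2.36e-05 against mock). Edar, the ectodysplasin receptor of epithelial appendages, likewise named after its values were seen, went from 0.0987 ± 0.0947 CPM in mock to 0.876 ± 0.0817 after poly(I:C) (adjusted p = 1.91e-07). With 7 counts in mock and 18 with poly(dA:dT), Edar passed the filter through the poly(I:C) libraries, which held 53.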
